A study of Mus musculus with 8 samples.

Results

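The genes described here are those that the deposited table names as kinases of the mitogen-activated protein (MAP) kinase cascade or as dual-specificity phosphatases (Dusp). They were taken by symbol alone: every gene whose symbol starts with Mapk, Map2k, Map3k or Map4k followed by a number, with Mapkapk, or with Dusp followed by a number. The rule found 50 genes among 11756, which are 5 MAP4K, 11 MAP3K, 7 MAP2K and 7 MAP kinase genes, 3 Mapkapk genes, 3 genes named after MAP kinases that are not kinases, and 14 Dusp genes. Of the 14 phosphatases, 6 (Dusp1, Dusp4, Dusp5, Dusp6, Dusp7 and Dusp16) are MAP kinase phosphatases and 8 are other members of the family. RNA came from C57BL/6 mouse bone marrow cells that carry CD11c, isolated by flow cytometry, all of 1 genotype. On culture day 6, cells of 4 libraries were loaded with acLDL, low density lipoprotein changed by acetylation so that scavenger receptors bind it, and 4 libraries are labelled as controls. Loading lasted 24 h, and the study used it as a model of atherosclerotic surroundings, so the comparison asks how the RNA of these kinases and phosphatases differs after lipid loading. Whether replicate libraries stem from different mice or cultures is not in the labels, so p-values refer to the spread among these 8 libraries, and that spread may be technical.

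A MAP kinase cascade passes a signal along a chain of kinases. MAP4K kinases act near the receptor and activate MAP3K kinases, these phosphorylate MAP2K kinases, and each MAP2K phosphorylates the threonine and the tyrosine in the activation loop of its MAP kinase. The ERK arm (Map2k1 and Map2k2, then ERK kinases such as Mapk3) answers mostly to growth factors, and the JNK arm (Map2k4 and Map2k7, then Mapk8 and Mapk9) and the p38 arm (Map2k3 and Map2k6, then Mapk13 and Mapk14) to stress, microbial ligands and cytokines. MAP kinase phosphatases remove both phosphates, and several of them, such as Dusp1, Dusp5 and Dusp6, are themselves induced by the signal they end. In dendritic cells and macrophages these arms control the release of cytokines after a Toll-like receptor is engaged. RNA says nothing of phosphorylation, on which the activity of these kinases depends.

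The deposited values are normalized, with totals of 3917426 to 4385051 in each library, and are printed here in that scale without a further unit. No value lies between 0 and 5, so a gene listed at 0 may have had a low value, and for such genes no mean value is printed in the text. Map3k20, Mapk6, Dusp16, Pebp1 and Rps6ka1, given below by fold change alone, were each listed at 0 in at least 1 library. The labelled cell type was checked with its sorting marker: Itgax, which encodes CD11c, was listed at 189, 10, 0 and 42.7 in acLDL libraries 1 to 4 and at 81.5, 182, 195 and 172 in control libraries 1 to 4. The libraries stood apart within the acLDL group. Genes listed at 0 numbered 820, 2178, 2574 and 1310 in acLDL libraries 1 to 4, against 662 to 1406 in the controls. A short-transcript index, the mean log2 deviation of genes with a longest transcript under 1000 nt minus that of genes with one of at least 3000 nt, was 1.05, -1.24, -2.16 and -0.24 in acLDL libraries 1 to 4, against 0.08 to 0.98 in the controls. Of the 10 dendritic cell markers looked up, 9 were tested, 8 with a lower and 1 with a higher mean with acLDL, and their summed value was 34821 to 44608 with acLDL and 31218 to 35201 in the controls. Most of that sum is H2-Eb1, the marker with the higher mean, at 23144 to 44279 with acLDL and 18386 to 26611 in the controls. Among the dendritic cell markers, Itgax was listed at 0 in acLDL library 3, Batf3 in acLDL libraries 2 and 3, and Zbtb46 in acLDL libraries 3 and 4. Flt3 was listed at 0 in acLDL libraries 3 and 4 and in control library 1. Cd209a was listed at 0 in acLDL libraries 2 and 4 and in control library 1. Of 8 macrophage and monocyte markers, 5 were lower and 3 higher, with sums of 25962 to 58218 and 41348 to 65682. Adgre1 and Ly6c2 were listed at 0 in acLDL libraries 2 and 3, and Cd68 in acLDL library 3. Of 6 granulocyte markers in the table, 5 were lower and 1 higher, with sums of 473 to 10803 and 5087 to 12700. Both lymphocyte markers in the table, of 6 looked up, had a higher mean with acLDL, with sums of 29.4 to 76.8 and 16.6 to 31.4. The haemoglobin gene Hbb-bs was at 54.1 to 190 with acLDL and 164 to 1429 in the controls, and 0 of 4 stromal markers were in the table. In RNA of a whole cell population, fewer cells of a type and less RNA per cell cannot be told apart. The parts of cell makeup and of the short-transcript index in the values below were not tested, and fold changes with the index as a covariate are given beside those without it. In acLDL libraries 2, 3 and 4 the index lay below every control, so a fit with it cannot fully separate index from group.

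No cascade gene or phosphatase differed between the groups past the adjusted threshold. Of the 50 genes, 43 reached a value of 10 in at least 4 libraries and entered the fit, limma on log2(value + 5) with Benjamini-Hochberg adjustment over all 10091 genes tested. An adjusted p under 0.05 was reached by 0 of the 43, as by 0% of all genes tested, and the smallest adjusted p was 0.298 in the limma fit. At an unadjusted p under 0.05 there were 7 of the 43 (16.3%), against 16.4% of all genes tested, so the genes of the cascade met this looser threshold about as often as any others. Dusp12, Map3k9 and Map4k4 were the 3 with a higher mean with acLDL (6.98%, against 7.42% of all genes), and Dusp1, Map3k1, Map4k3 and Mapk14 were the 4 with a lower mean (9.3%, against 8.93%). Without acLDL libraries 1, 2, 3 and 4 in turn the count was 17, 1, 2 and 3, which is 39.5%, 2.33%, 4.65% and 6.98%, against 39.6%, 6.95%, 7.46% and 10.8% of all genes. Without control libraries 1, 2, 3 and 4 it was 11, 1, 2 and 2, which is 25.6%, 2.33%, 4.65% and 4.65%, against 21.2%, 8.23%, 9.69% and 9.04%. In 1 gene, Map3k1, the acLDL values did not overlap the control values, being lower (2.33%, against 5.64% of all genes tested in either direction, 2.2% lower and 3.44% higher). Without acLDL libraries 2, 3 and 4 in turn there were 1, 3 and 2 such genes (2.33%, 6.98% and 4.65%, against 6.78%, 7.16% and 7.22% of all genes). Without control libraries 1, 2, 3 and 4 there were 5, 2, 2 and 2 (11.6%, then 4.65% each, against 15.3%, 7.77%, 8.52% and 7.84%).

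The acLDL group was split in many of these genes. In 31 of the 43 tested genes the value of acLDL library 1 fell between the lowest and the highest control. The same count over all genes tested was not made, so the 31 cannot be read as particular to these genes. Libraries 2, 3 and 4 lay below every control in 13 genes (30.2%, against 18.9% of all genes tested) and above every control in 3 (6.98%, against 14%). Together these 16 are 37.2% of the cascade genes and phosphatases, and the background is 33%. Without acLDL library 1, 7 of the 43 passed the adjusted threshold in limma (16.3%), all lower with acLDL, and 2190 of all genes did (21.7%; 7.28% higher and 14.4% lower). These 7 were Dusp1, Dusp5, Map2k3, Map2k7, Map4k3, Mapk14 and Mapk3. With the short-transcript index as a covariate, 0 of the 43 passed, as did 0% of all genes, and 3 had an unadjusted p under 0.05 (6.98%, against 5.04%), namely Dusp3, Map3k14 and Map3k8. Without acLDL libraries 2 and 3, which leaves 2 libraries with acLDL, there were 2 at that p (4.65%, against 3.02%), Map3k1 and Map3k8.

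**Figure D1:**
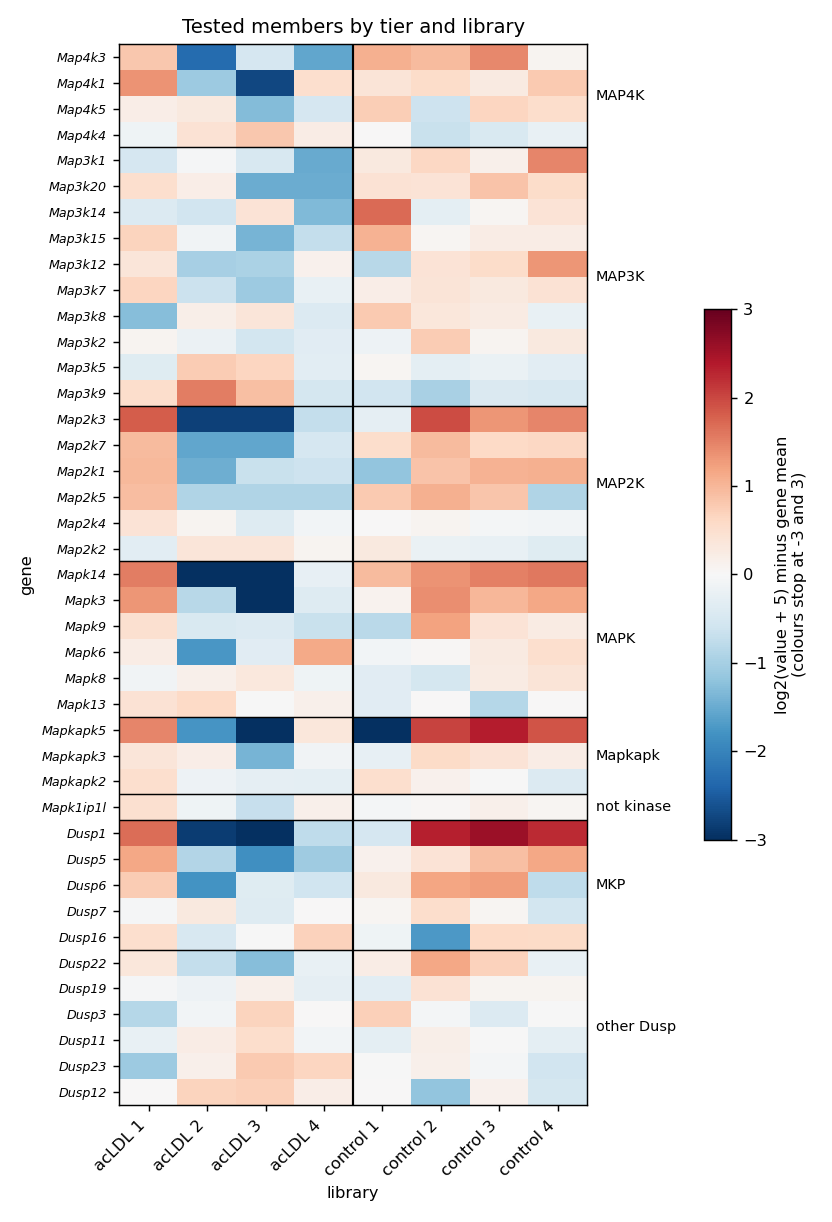
Deviation of log2(value + 5) from each gene's mean over the 8 libraries (colour, red above and blue below the mean), for 41 of the 43 tested genes (vertical axis, ordered by tier and fold change) in the 4 acLDL and 4 control libraries (horizontal axis); MKP stands for MAP kinase phosphatases. Dusp1, Mapk14, Map2k3 and Mapk3 are lower in acLDL libraries 2, 3 and 4 than in acLDL library 1, where they are red as in control libraries 2, 3 and 4.

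Among the MAP4K kinases, at the top of the chain, Map4k3 had a lower and Map4k4 a higher mean with acLDL, and the tier's median log2 fold change was -0.65 (2 higher, 3 lower of 5). That direction turned with the index (0.033, 3 higher and 2 lower) and without acLDL libraries 2 and 3 (0.080). Map4k3 (chromosome 17, 80580512 to 80728485, GRCm38, minus strand) encodes GLK, a kinase linked to amino acid sensing and T cell signalling. With acLDL, Map4k3 was 93, 6.4, 34.8 and 14 in libraries 1 to 4, and in the controls 111, 104, 148 and 54.5. Only acLDL library 1 reached into the range of the controls. The log2 fold change of Map4k3 was -1.77 (SE 0.65, adjusted p = 0.298 in limma), or -1.15 with the index as a covariate.

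Map4k4 (chromosome 1, 39900913 to 40026310, plus strand) encodes HGK, an activator of the JNK arm. With acLDL, Map4k4 was 148, 223, 291 and 192, and in the controls 167, 101, 118 and 140. In the acLDL group, libraries 2, 3 and 4 lay above every control, with acLDL library 1 between them. Its mean was 214 ± 60.1 with acLDL and 132 ± 28.3 in the controls (SD, n = 4 each), a log2 fold change of 0.66 (SE 0.27, adjusted p = 0.298 in limma), or 0.25 with the index. Map4k1, which encodes the haematopoietic kinase HPK1, spread the most of this tier with acLDL, at 856, 154, 45.7 and 473 against 437, 494, 405 and 579. Some acLDL values of Map4k1 were above and some below all controls, and the log2 fold change of -1 (adjusted p = 0.435 in limma) was 0.54 with the index. Map4k5 had a log2 fold change of -0.65 (adjusted p = 0.417 in limma), or -0.32 with the index.

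MAP3K kinases were mostly lower with acLDL: of 10 tested, 8 had a lower and 2 a higher mean, with a median log2 fold change of -0.69, against -0.13 over all tested genes. It was -0.97 without acLDL library 1 and -0.24 with the index. Map3k1 (MEKK1; chromosome 13, 111746428 to 111808993, minus strand), which feeds the JNK arm, was listed with acLDL at 5.10, 9.03, 5.28 and 0, and in the controls at 12.4, 16.8, 10.9 and 34.4. All 4 acLDL values lay below all 4 control values, although every one of them was near the floor of the table. The log2 fold change of Map3k1 was -1.26 (SE 0.51, adjusted p = 0.298 in limma). It was -1.40 with the index and -1.64 without acLDL libraries 2 and 3, but -0.59 after quantile normalization, -0.96 without acLDL library 4 and -0.98 without control library 4. With a pseudocount of 20 it was -0.61 and with one of 1 it was -2.01.

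For Map3k8 and Map3k14 the fitted differences were larger with the index in the fit. Map3k8 (Tpl2 or Cot; chromosome 18, 4331327 to 4353015, minus strand) is the kinase through which Toll-like receptors reach the ERK arm in myeloid cells. With acLDL, Map3k8 was 61.1, 174, 200 and 115, and in the controls 271, 199, 184 and 133. Libraries 1 and 4 of the acLDL group lay below every control, and libraries 2 and 3 among them, whereas libraries 2 and 3 were the lowest of the acLDL group in Dusp1, Mapk14 and Map2k3. Its log2 fold change was -0.58 (SE 0.39, adjusted p = 0.383 in limma). With the index it was -1.27 (not past the adjusted threshold), and without acLDL libraries 2 and 3 it was -1.14 (adjusted p = 0.994 in limma), whereas without acLDL library 1 it was -0.25. Map3k14 (NIK), known for the non-canonical NF-kB pathway, is named here after its values were seen. With acLDL, Map3k14 was 60.0, 53.1, 110 and 29.1, against 275, 65.3, 84.5 and 110 in the controls. Control library 1 was the highest of all 8, acLDL library 3 lay among the controls and the other acLDL libraries lay below them. Its log2 fold change was -0.95 (adjusted p = 0.314 in limma), or -1.48 with the index.

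Map3k9 (MLK1; chromosome 12, 81721010 to 81781175, minus strand), a mixed-lineage kinase that activates the JNK arm, had a higher mean with acLDL. With acLDL, Map3k9 was 33.5, 73.2, 45.2 and 13.7, and in the controls 13.1, 8.70, 14.8 and 14.1. Libraries 1, 2 and 3 lay above every control and library 4 among them. The means were 41.4 ± 24.9 and 12.7 ± 2.73 (SD, n = 4 each), a log2 fold change of 1.23 (SE 0.48, adjusted p = 0.298 in limma), or 0.88 with the index. Map3k5 (ASK1), the other MAP3K with a higher mean, had a log2 fold change of 0.37, or -0.12 with the index, and the other 5 tested, Map3k2, Map3k7, Map3k12, Map3k15 and Map3k20, lay between -1.13 and -0.49. Map3k7 (TAK1), which Toll-like and tumour necrosis factor receptors share, was listed at 33.5, 11.0, 6.65 and 16.4 with acLDL and at 23.4 to 28.5 in the controls. Here too acLDL libraries 2, 3 and 4 lay below the controls, while acLDL library 1 lay above them, and its log2 fold change of -0.66 was -0.0016 with the index. Map3k3 was too low to be tested, at 0 to 17.1 with acLDL and 6.43 to 10.8 in the controls.

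**Figure D2:**
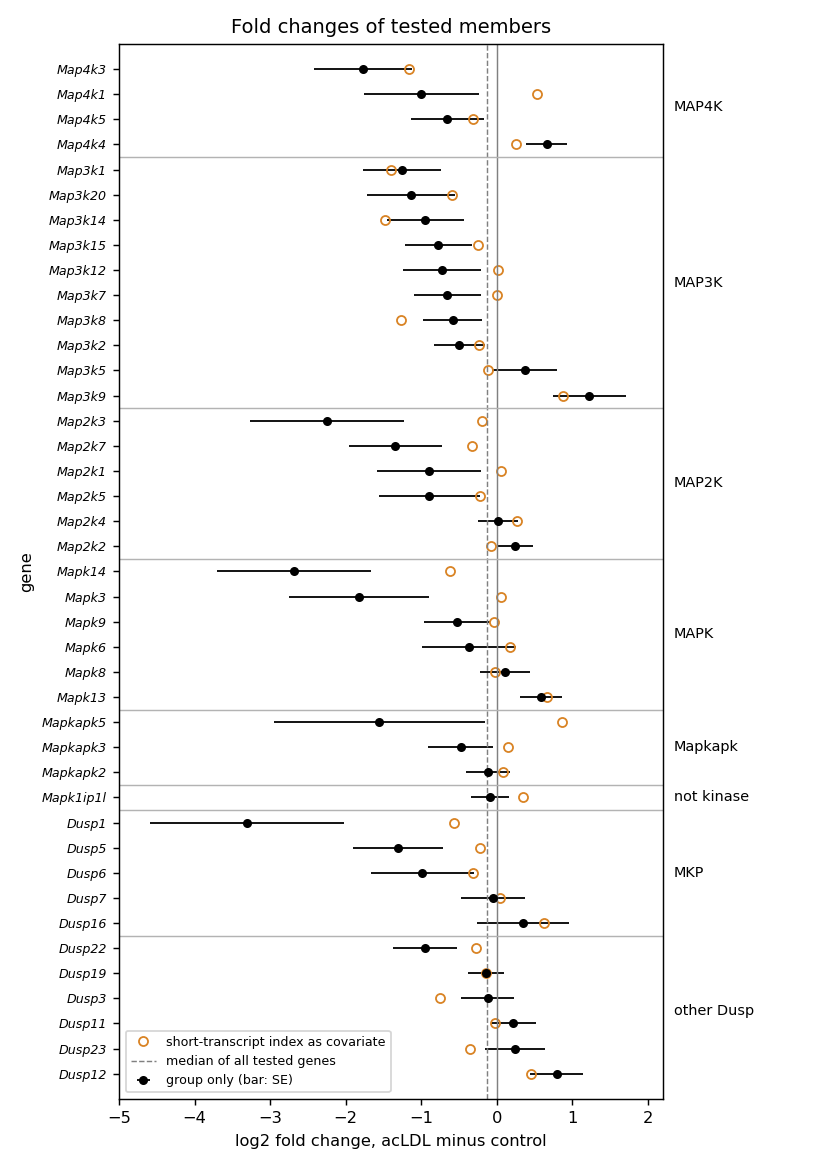
Log2 fold change, acLDL minus control, of 41 of the 43 tested genes by tier: black points with bars give the fit with group alone and its standard error (4 libraries each), open circles the fit with the short-transcript index as a covariate, and the dashed line marks the median of all tested genes, -0.13. The largest negative values move towards 0 with the index (Dusp1 from -3.31 to -0.56, Mapk14 from -2.68 to -0.62), whereas Map3k1 and Map3k8 do not.

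In the MAP2K tier, 4 of 6 tested kinases had a lower and 2 a higher mean with acLDL, and the median log2 fold change was -0.89, or -0.14 with the index. Map2k3 (MKK3; chromosome 11, 60932033 to 60952811, plus strand), which phosphorylates p38 kinases, was listed with acLDL at 118, 0, 0 and 16.2, and in the controls at 24.1, 130, 82.7 and 91.6. Libraries 2, 3 and 4 of the acLDL group lay below every control, library 1 lay among them, and control library 1 was far below the other controls. Its log2 fold change was -2.25 (SE 1.02, adjusted p = 0.298 in limma). Without acLDL library 1 it was -3.23 (adjusted p = 0.0267), and with the index it was -0.19. Map2k6, the other kinase of p38, was too low to be tested, at 0 to 13.1 with acLDL and 0 to 17.2 in the controls.

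Map2k7 (MKK7), which activates JNK and no other MAP kinase, was listed with acLDL at 23.6, 0, 0 and 5.54, and in the controls at 16.3, 23.6, 17.4 and 18. Its order of libraries was that of Map2k3, with acLDL library 1 among the controls and the other 3 below them. The log2 fold change of Map2k7 was -1.35 (SE 0.62, adjusted p = 0.298 in limma), or -1.88 without acLDL library 1 (adjusted p = 0.0345) and -0.33 with the index. Map2k4 (MKK4), the other kinase of JNK, had means of 61.5 ± 15.6 with acLDL and 59.4 ± 3.34 in the controls (SD, n = 4 each), with a log2 fold change of 0.016 (adjusted p = 0.973 in limma), or 0.27 with the index. In the ERK arm, Map2k2 (MEK2) was 252, 406, 408 and 333 with acLDL and 386, 271, 271 and 242 in the controls, a log2 fold change of 0.25 (adjusted p = 0.524 in limma). Its groups overlapped, and the value was -0.081 with the index. Map2k1 (MEK1) was 52.6, 5.57, 13.4 and 13.9 with acLDL and 7.80, 48.3, 55.7 and 56.4 in the controls. Low values were found in both groups, in acLDL libraries 2, 3 and 4 and in control library 1, and its log2 fold change of -0.90 (adjusted p = 0.435 in limma) was 0.057 with the index. Map2k5, the kinase of ERK5, was listed at 12.7 and otherwise at 0 with acLDL, and at 0 to 14.7 in the controls, with a log2 fold change of -0.89 (adjusted p = 0.426 in limma), or -0.23 with the index.

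The MAP kinases themselves did not move together. Of 7, 4 had a lower and 3 a higher mean with acLDL. Their median log2 fold change of -0.36 was 0.38 after quantile normalization, 0.079 without acLDL library 2 and 0.052 with the index, so the tier has no stable direction. Mapk14 (p38 alpha; chromosome 17, 28691329 to 28748406, plus strand), the main p38 kinase of myeloid cells, was listed with acLDL at 140, 0, 0 and 37.3, and in the controls at 91.0, 122, 137 and 145. The controls lay close together, acLDL library 1 lay among them, and the other 3 acLDL libraries lay below. The log2 fold change of Mapk14 was -2.68 (SE 1.02, adjusted p = 0.298 in limma), or -3.64 without acLDL library 1 (adjusted p = 0.0246) and -0.62 with the index.

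Mapk13 (p38 delta) is the next p38 gene on the same chromosome (28769297 to 28780233, plus strand) and did not share this pattern. With acLDL, Mapk13 was 131, 146, 95.4 and 107, and in the controls 74.4, 96.0, 50.8 and 95.7. Only acLDL library 3 lay within the controls, just below the highest of them. Its means were 120 ± 22.8 and 79.2 ± 21.5 (SD, n = 4 each), a log2 fold change of 0.59 (SE 0.28, adjusted p = 0.300 in limma), and 0.67 with the index.

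In the ERK arm, Mapk3 (ERK1; chromosome 7, 126759601 to 126765819, plus strand) was listed with acLDL at 165, 32.6, 0 and 46.6, and in the controls at 67.0, 172, 130 and 145. Libraries 2, 3 and 4 of the acLDL group lay below every control, and its log2 fold change was -1.82 (SE 0.92, adjusted p = 0.305 in limma). It was -2.57 without acLDL library 1 (adjusted p = 0.0472) and 0.052 with the index (SE 0.45), so with the index no direction is set.

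Of the JNK kinases, Mapk8 (JNK1) was 36.1, 44.5, 50.3 and 35.7 with acLDL, and 30, 26.1, 48.1 and 53.2 in the controls. Its means of 41.6 ± 7.07 and 39.3 ± 13.3 (SD, n = 4 each) differed by less than the spread between libraries (log2 fold change 0.11, or -0.025 with the index, adjusted p = 0.850 in limma). Mapk9 (JNK2) was 245, 126, 130 and 109 with acLDL, and 97.0, 407, 235 and 207 in the controls, with overlapping groups and a log2 fold change of -0.52 (SE 0.43, adjusted p = 0.467 in limma), or -0.036 with the index. Mapk6 (ERK3), an atypical MAP kinase, had a log2 fold change of -0.36 (SE 0.62, adjusted p = 0.735 in limma), or 0.18 with the index.

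Within pairs of related kinases, the ratio of the 2 genes was compared between the groups. There were 5 pairs, chosen after their values had been seen, so the p-values and their adjustment do not have their usual meaning. Of these pairs, 4 are given. For each, the log2 ratio of (value + 5) was set against an exact two-sided permutation test over 70 assignments, in which the smallest possible p is 0.029. The log2 ratio of Mapk13 to Mapk14 was -0.09, 4.92, 4.33 and 1.41 with acLDL and -0.27, -0.33, -1.35 and -0.57 in the controls. All 4 acLDL ratios were above all 4 control ratios, the difference of means was 3.27 (exact permutation p = 0.029, the smallest possible, adjusted p = 0.143 over 5 pairs), and acLDL library 1 was the nearest to the controls. Mapk14 was listed at 0 in acLDL libraries 2 and 3, so the size of the difference depends on the 5 added. The difference was 1.29 with the index and also 1.29 without acLDL libraries 2 and 3. For Map2k4 to Map2k7 the ratio was higher with acLDL by 1.36 (exact permutation p = 0.057, adjusted p = 0.143). Map2k7 was also listed at 0 in acLDL libraries 2 and 3, so this size too depends on the 5 added. Neither Mapk8 to Mapk9, at 0.63 (exact permutation p = 0.314, adjusted p = 0.343), nor Map2k1 to Map2k2, at -1.15 (exact permutation p = 0.343, adjusted p = 0.343), passed the threshold either. The longest transcript was 3592 nt for Mapk14 and 2937 nt for Mapk13.

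Downstream of p38, the Mapkapk kinases had lower means with acLDL in 3 of 3, with a median log2 fold change of -0.48, and all 3 had positive values with the index (median 0.15). Mapkapk2 (MK2), which controls the stability of cytokine messages, was 185, 115, 106 and 105 with acLDL and 187, 143, 129 and 96.2 in the controls. The 2 groups covered the same range, with a log2 fold change of -0.12 (adjusted p = 0.817 in limma), 0.12 after quantile normalization and 0.087 with the index. Mapkapk3 (MK3) was 68.6, 61.0, 16.8 and 48.9 with acLDL and 43.7, 80.4, 71.2 and 62.4 in the controls (log2 fold change -0.48, or 0.15 with the index, adjusted p = 0.503 in limma). Mapkapk5 (PRAK) was listed at 118, 7.90, 0 and 50.9 with acLDL and at 0, 174, 220 and 159 in the controls. Control library 1 and acLDL library 3 shared the lowest place, and its log2 fold change of -1.55 had an SE of 1.40 (adjusted p = 0.502 in limma) and was 0.87 with the index. Of the genes named after MAP kinases that are not kinases, Mapk1ip1l had a log2 fold change of -0.087 (adjusted p = 0.847 in limma), or 0.35 with the index, at 693, 450, 305 and 545 against 475, 500, 546 and 511. The controls lay within the wider range of the acLDL libraries. Mapk1ip1 and the JNK scaffold Mapk8ip3 were too low to be tested, with highest values of 28.1 and 31.5.

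**Figure D3:**
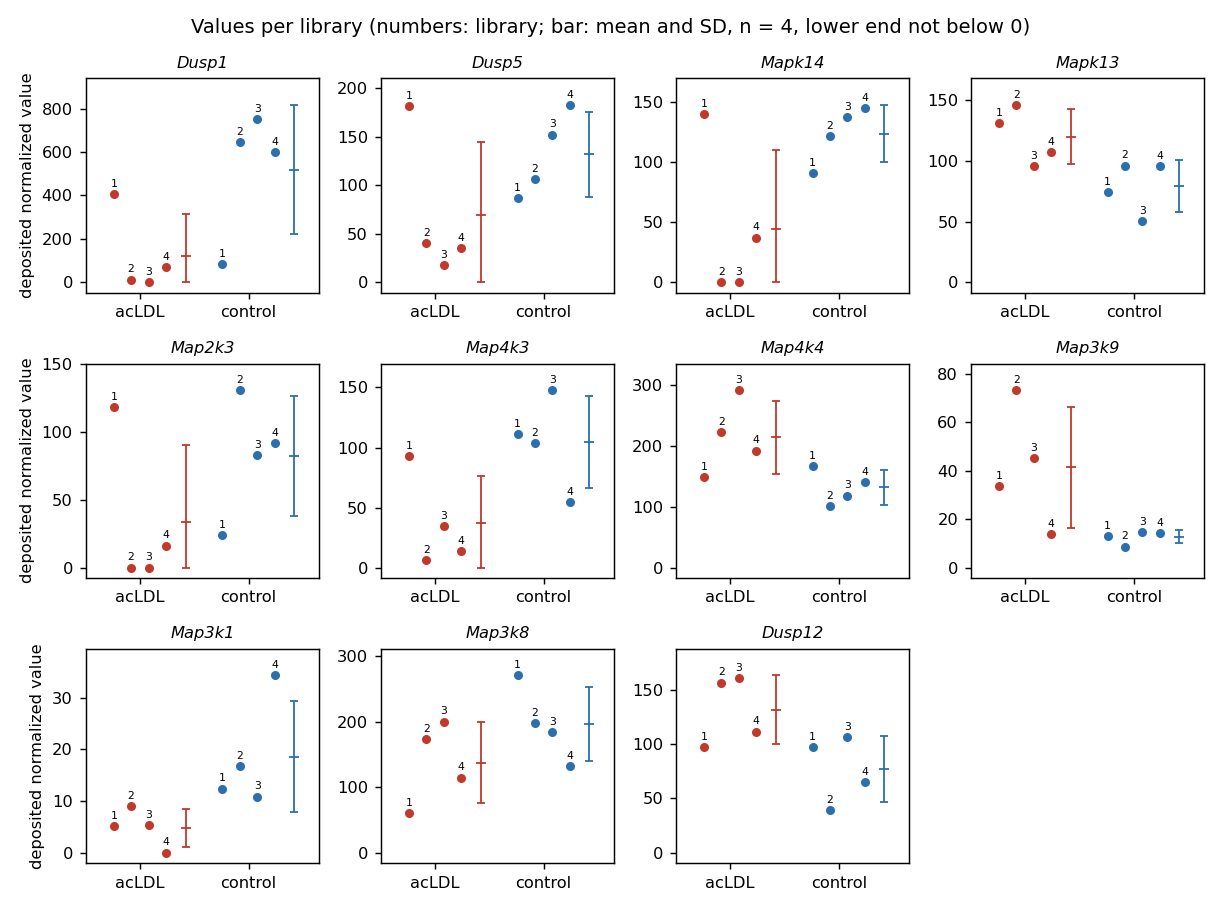
Deposited normalized value (vertical axes, from 0, 1 scale per gene) of 11 genes in each library (points, numbered by library), with the mean and SD of the 4 acLDL (red) and 4 control (blue) libraries beside them. Mapk14 and Map2k3 are at 0 in acLDL libraries 2 and 3, and Map3k1 is lower in all 4 acLDL libraries than in any control.

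The MAP kinase phosphatases had a median log2 fold change of -0.98 (4 lower, 1 higher of 5 tested). It was -0.40 without acLDL libraries 2 and 3, -0.36 after quantile normalization, -0.55 without acLDL library 2 and -0.21 with the index. The promoters of the inducible phosphatases Dusp1, Dusp5 and Dusp6 are shown because Dusp1 and Dusp5 had the lowest fold changes of the 5 tested. A further reason is that all 3 are known as early targets of the arms they inactivate. Each sequence is the 250 bases before the start site, from RefSeq (GRCm38.p6), read 5′ to 3′ on the gene's strand. Capitals mark TGACG on either strand, the core of the element bound by CREB and ATF factors, and the CArG box bound by serum response factor.
Dusp1 (chr17:26508473-26508722, minus strand): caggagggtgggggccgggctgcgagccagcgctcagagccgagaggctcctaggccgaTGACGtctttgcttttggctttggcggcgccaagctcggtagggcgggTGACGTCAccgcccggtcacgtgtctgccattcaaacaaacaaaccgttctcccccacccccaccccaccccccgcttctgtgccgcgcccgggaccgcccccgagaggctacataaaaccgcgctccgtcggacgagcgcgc
Dusp5 (chr19:53528895-53529144, plus strand): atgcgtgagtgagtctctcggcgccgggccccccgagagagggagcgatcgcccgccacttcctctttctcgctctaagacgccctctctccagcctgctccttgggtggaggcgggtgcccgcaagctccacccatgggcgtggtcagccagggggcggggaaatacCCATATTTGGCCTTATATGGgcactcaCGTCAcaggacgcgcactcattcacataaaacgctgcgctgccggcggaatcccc
Dusp6 (chr10:99262981-99263230, plus strand): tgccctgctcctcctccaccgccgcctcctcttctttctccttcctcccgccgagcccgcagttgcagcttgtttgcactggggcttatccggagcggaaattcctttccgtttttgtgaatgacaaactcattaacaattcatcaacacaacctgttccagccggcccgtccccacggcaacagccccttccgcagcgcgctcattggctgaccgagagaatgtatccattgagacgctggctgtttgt
The Dusp1 promoter holds TGACG at -191 to -187 from the start site and a palindrome, TGACGTCA, whose TGACG on the gene's strand is at -143 to -139. The Dusp5 promoter holds the core on the other strand at -55 to -51 and a pair of adjoining CArG boxes, CCATATTTGG at -82 to -73 and CCTTATATGG at -72 to -63. No match was found in the Dusp6 window. Of 32851 promoter windows of the same length, 17.8% hold TGACG on either strand, 1.55% the full TGACGTCA and 1.47% a CArG box. Of the 36 tested genes of the cascade and phosphatases with a promoter in the table, 15 hold TGACG, 1 (Dusp1) TGACGTCA and 1 (Dusp5) a CArG box, while GGGCGG, the Sp1 box, is in 25 (32.7% of all windows) and TATAAA in 1, Map2k7 (12.4% of all windows). Some of these genes have 2 windows, and a gene was counted if any of its windows held the letters. The shares of all windows are per window and are not limited to genes tested here, so the gene counts cannot be set directly against them. The motifs were searched on both strands, the TGACG matches include those inside TGACGTCA, and a match is a description of the letters only.

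Dusp1 (MKP-1) ends p38 and JNK signalling in myeloid cells after a Toll-like receptor is engaged. It had the largest difference of the 43 genes in the fit with group alone, whereas with the index Map3k14 did (-1.48). With acLDL, Dusp1 was 408, 12.8, 0 and 70.7 in libraries 1 to 4, and in the controls 84.9, 645, 750 and 598. Both groups split: acLDL library 1 came near the 3 high controls, and control library 1 lay near the 3 low acLDL libraries. The log2 fold change of Dusp1 was -3.31 (SE 1.29, adjusted p = 0.298 in limma), or -4.42 without acLDL library 1 (adjusted p = 0.0283), -1.19 without acLDL libraries 2 and 3 and -0.56 with the index.

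Dusp5, a nuclear phosphatase of ERK, was 182, 40.6, 18.2 and 35.2 with acLDL, and 86.6, 106, 152 and 183 in the controls. Libraries 2, 3 and 4 of the acLDL group lay below every control and library 1 at their upper end. The means were 69.0 ± 75.9 and 132 ± 43.6 (SD, n = 4 each), and the log2 fold change was -1.31 (SE 0.60, adjusted p = 0.298 in limma), or -1.91 without acLDL library 1 (adjusted p = 0.0241) and -0.21 with the index. Dusp6 (MKP-3), the cytoplasmic phosphatase of ERK, was low throughout, at 24.5, 0, 8.54 and 6.52 with acLDL and 16.1, 34.1, 36.5 and 5.28 in the controls. The lowest control, library 4, lay below 3 of the acLDL libraries, and the log2 fold change of Dusp6 was -0.98 (SE 0.68, adjusted p = 0.395 in limma), or -0.32 with the index. Dusp7 and Dusp16 had log2 fold changes of -0.052 and 0.35 (adjusted p = 0.948 and 0.740 in limma), or 0.045 and 0.63 with the index. Dusp4, which was not tested, was listed above 0 in 2 libraries of each group, up to 9.33 with acLDL and 34.6 in the controls.

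The other phosphatases of the family had a median log2 fold change of 0.05 (3 higher, 3 lower of 6 tested), or -0.21 with the index. The median was below 0 without acLDL library 3 (-0.096), acLDL library 4 (-0.00046) or control library 4 (-0.022), so it has no stable direction. Dusp12, known for a zinc-binding domain and ribosome assembly, was 97.5, 157, 161 and 112 with acLDL, and 97.3, 39.6, 106 and 65.0 in the controls. Libraries 2, 3 and 4 of the acLDL group lay above every control and library 1 among them. Its means were 132 ± 31.8 and 77.0 ± 30.6 (SD, n = 4 each), with a log2 fold change of 0.79 (SE 0.35, adjusted p = 0.298 in limma), or 0.46 with the index. Dusp22 (JKAP), a regulator of JNK and T cell receptor signalling, was 113, 51.7, 33.6 and 74.9 with acLDL, and 105, 205, 147 and 75.7 in the controls. Library 4 of each group had nearly the same value, and the log2 fold change was -0.95 (SE 0.43, adjusted p = 0.298 in limma), or -0.27 with the index.

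Dusp23 was 702, 1660, 2585 and 2329 with acLDL, and 1489, 1652, 1439 and 996 in the controls. Some acLDL values were above and some below all controls, and the fold change of 0.25 on the log2 scale (adjusted p = 0.718 in limma) was -0.35 with the index. Dusp3 (VHR), a phosphatase of ERK and JNK that is named here after its values were seen, was 477, 817, 1378 and 864 with acLDL and 1424, 823, 645 and 859 in the controls. The groups overlapped nearly in full, with a log2 fold change of -0.12 (adjusted p = 0.848 in limma), and -0.75 with the index. Dusp11, an RNA phosphatase, and Dusp19 had log2 fold changes of 0.22 and -0.14 (adjusted p = 0.662 and 0.734 in limma), or -0.026 and -0.14 with the index. Dusp15 and Dusp18 were not tested. Dusp15 was listed above 0 in 1 library of each group, at 6.74 and 62.3, and Dusp18 in acLDL libraries 1, 2 and 3 and control library 3, at 5.27 to 25.9.

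Set against the phosphatases, the kinases did not differ from them between the groups by more than the spread between libraries. For each library the mean log2 deviation of the 31 tested kinases from their own means was taken, and that of the 11 tested phosphatases was subtracted. The result was 0.24, -0.01, -0.30 and -0.23 with acLDL and 0.05, 0.09, -0.12 and 0.29 in the controls. The means were -0.08 ± 0.24 and 0.08 ± 0.17 (SD, n = 4 each), and their difference was -0.15. The kinases had a median log2 fold change of -0.65 (9 higher, 22 lower of 31) and all phosphatases of -0.12 (4 higher, 7 lower of 11). With the index these were -0.025 and -0.21, so the order of the medians depends on that covariate. Against the MAP kinase phosphatases alone, the kinases were at -0.38, 0.62, 0.63 and -0.02 with acLDL and at 0.10, -0.15, -0.67 and -0.15 in the controls. These values, with means of 0.22 ± 0.50 and -0.22 ± 0.32, overlap between the groups.

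**Figure D4:**
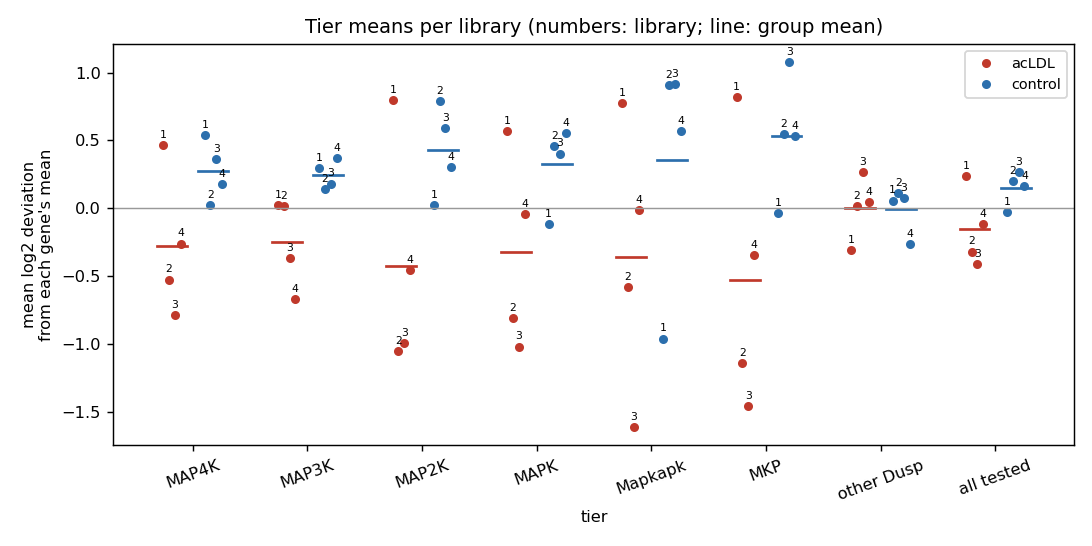
Mean deviation of log2(value + 5) from each gene's own mean (vertical axis) over the tested genes of each tier and over all tested genes (horizontal axis), 1 point per library, numbered, with lines at the group means of 4 acLDL (red) and 4 control (blue) libraries. In the MAP kinase phosphatases acLDL libraries 1 to 4 are at 0.82, -1.14, -1.46 and -0.34, and in the other Dusp phosphatases at -0.31, 0.02, 0.27 and 0.04.

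In the fit with group alone, the median over these genes was further below 0 than that over all genes tested. Over all 43 genes the median log2 fold change was -0.52 (13 higher, 30 lower), against -0.13 over all genes tested (4473 higher, 5618 lower), and -0.036 against 0.0076 with the index. Quantile normalization moved the median of all genes to 0.15 and that of the 43 to -0.15. Median-of-ratios scaling gave -0.16 and -0.56, and the part of the scaling in the lower side was not tested. Among genes with a longest transcript under 3000 nt, the 17 of the cascade and phosphatases had a median of -0.89 and all 4144 tested a median of -0.46. Among those of 3000 nt or more, the 26 had a median of -0.43 and all 4840 a median of 0.00. By arm, the median was -0.37 for the 4 ERK kinases, -0.48 for the 5 tested of p38 with Mapkapk2 and Mapkapk3, and -0.25 for the 4 of JNK, and with the index 0.055, 0.087 and -0.030.

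Other genes of the pathway were looked up from lists, none of whose members passed the adjusted threshold in limma. Ras, Raf and their adaptors, 12 genes, had a median of -0.41, with 4 higher and 8 lower, or -0.18 with the index. Rras2, a Ras-related GTPase, had means of 431 ± 74.5 with acLDL and 577 ± 41.6 in the controls (SD, n = 4 each), with no overlap and a log2 fold change of -0.43 (adjusted p = 0.298 in limma), or -0.36 with the index. The adaptor Shc1 had a log2 fold change of -0.70 (adjusted p = 0.298 in limma), or -0.73 with the index. Of 12 activators and scaffolds of the stress arms, 5 were higher and 7 lower (median -0.11), but 10 higher and 2 lower with the index (median 0.18). Traf2, the adaptor of tumour necrosis factor receptors, was 195, 559, 531 and 251 with acLDL and 205, 74.9, 148 and 126 in the controls. Libraries 2, 3 and 4 with acLDL lay above every control, and the log2 fold change was 1.38 (adjusted p = 0.298 in limma), or 0.67 with the index. Lamtor1, part of the lysosomal scaffold that binds MEK1, had means of 688 ± 154 and 450 ± 41.6 (SD, n = 4 each), with no overlap (log2 fold change 0.58, or 0.31 with the index, adjusted p = 0.298 in limma).

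Among the inhibitors outside the Dusp family, 7 of 11 were higher with acLDL and 4 lower, and the median was 0.038, or 0.016 with the index. Spry2, a Sprouty protein that restrains the ERK arm and is induced by it, was 9.73, 8.15, 9.37 and 16.6 with acLDL, and 37.4, 240, 67.4 and 82.3 in the controls. The lowest control was above the highest acLDL library, and the 4 acLDL libraries lay close together. Its log2 fold change was -2.52 (adjusted p = 0.298 in limma), -2.27 with the index, -2.49 without acLDL library 1 and -2.34 without acLDL libraries 2 and 3. Pebp1, the Raf kinase inhibitor protein, had a log2 fold change of -2.17 (adjusted p = 0.299 in limma), or 0.016 with the index.

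The 17 nuclear targets had a median of -0.38, with 5 higher and 12 lower, or -0.065 with the index. Fosb, a subunit of AP-1, was listed at 56.9, 73.7, 0 and 0 with acLDL and at 166, 156, 150 and 133 in the controls. Here acLDL library 1 was also below every control, and the log2 fold change was -3.06 (adjusted p = 0.298 in limma), or -2.27 with the index. Mef2d, a transcription factor that p38 phosphorylates, had means of 184 ± 46.7 and 91.5 ± 22.2 (SD, n = 4 each), with no overlap (log2 fold change 0.96, or 0.59 with the index, adjusted p = 0.298 in limma). All 4 genes of the RNA-binding list, which p38 and MK2 act on, had a lower mean (median -0.95, or -0.33 with the index). Zfp36 (tristetraprolin) was listed at 547, 0, 0 and 15.1 with acLDL and at 18.3, 1409, 878 and 897 in the controls, with the same split of both groups as Dusp1. Its log2 fold change was -4.13 (adjusted p = 0.298 in limma), or -0.87 with the index and -1.93 without acLDL libraries 2 and 3. For Zfp36l1 the log2 fold change was -0.78 (adjusted p = 0.298 in limma), or -0.66 with the index. Of the effector kinases 3 were tested, with Rps6ka1 at -1.54, Rps6ka5 at -0.47 and Rps6ka3 at 0.42 (smallest adjusted p = 0.320 in limma). With the index these were 0.11, -0.56 and 0.38, so the sign of Rps6ka1 turned.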

How the data were processed

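Poly(A) RNA of 8 libraries was prepared with a kit that reads the 3′ end of messages, per the labels' protocols. The study's design text speaks of quantification at the 5′ end instead, and the kit was followed here. Reads were processed with bcl2fastq 2.20 and kallisto against mm10, per the submitters' processing notes. How the values were normalized is not given in the sources used here. Each gene has, in the deposited file, 1 signal per library, already normalized. It is not made of whole reads, so no count model or counting interval was used, and depth is unknown beyond the totals. Genes with at least 10 in at least 4 libraries were tested with limma 3.58.1 (R 4.3.3) on log2(value + 5), 4 libraries a group, with variance trend, robust moderation, two-sided p and Benjamini-Hochberg adjustment at 0.05. Fold changes on this scale understate those of low genes. The fit was run on simulated data with known changes. There the noise of each gene was drawn on its own, so the run cannot speak to library-wide differences such as the short-transcript index. Transcript lengths and gene coordinates came from GENCODE mouse release M21 (GRCm38, 86.2% of symbols matched, all 50 genes described here). Kallisto divides reads between similar transcripts, so values of close relatives are less certain. The genes and lists were chosen with earlier results of these data known. Genes are named if their groups do not overlap, if p is under 0.05, or if they have the 2 smallest p or the highest mean of their tier. Also named are Mapk3, Mapk8, Mapk14, Dusp1 and Dusp6, and of each list the 2 with the smallest p. Some genes are not reported here. Alternatives were other pseudocounts (1 and 20), filters, scalings, covariates and left-out libraries. The labels do not say that a replicate number marks a shared animal or day, so the numbers were not taken as pairs. Deviations of libraries that share a number had correlations across genes of -0.55, -0.21, -0.28 and 0.03. These cannot tell whether pairs exist, because library-wide differences such as the short-transcript index enter them.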

Additional observations from a re-analysis of the deposited data

Results flagged for a closer look

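In 4 of 66 groups of 4 libraries, 1 library lay so far from the others that its gap, as a share of the group's whole range, was above Dixon's critical value, which chance passes in about 1 of 20 groups. For Dusp1 in the controls the gap was 0.895 of the range, with control library 1 at 84.9 and the others at 598 to 750. For Mapkapk5 in the controls it was 0.918, with control library 1 listed at 0 and the others at 159 to 220. For Mapkapk2 with acLDL it was 0.842, with acLDL library 1 at 185 and the others at 105 to 115. For the mean log2 deviation of the other Dusp phosphatases in the controls it was 0.858, with control library 4 at -0.26 and the others at 0.06 to 0.11.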

How the results depend on the processing

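The count of all genes past the adjusted threshold was 0, 1 after quantile normalization, 3 without trend and robust moderation, and 0 to 2190 when 1 library was left out. That of the 43 cascade genes and phosphatases was 0 to 7, the upper values being without acLDL library 1. Counts of these 43 at an unadjusted p under 0.05 were 4 of 25 tested with at least 10 in all libraries (16%, against 19.3% of all genes), 3 with the index (6.98%, against 5.04%), 2 without acLDL libraries 2 and 3 (4.65%, against 3.02%), and 1 to 17 without 1 library (2.33% to 39.5%, against 6.95% to 39.6%). With the replicate number as a block there were 2 (4.65%, against 7.23% of all genes), and 0 past the adjusted threshold. Genes without overlap numbered 0 of 25 with at least 10 in all libraries (0%, against 6.92% of all genes), 2 after quantile normalization (4.65%, against 5.56%), 4 without acLDL libraries 2 and 3 (9.3%, against 10.3%), and 1 to 16 without 1 library (2.33% to 37.2%, against 6.78% to 33%). Tier medians changed as follows. After quantile normalization they were -0.23 for MAP4K, -0.39 for MAP3K, -0.28 for MAP2K, 0.38 for MAP kinases, -0.092 for Mapkapk genes, -0.36 for MAP kinase phosphatases and -0.15 for all 43. With the index they were 0.033 for MAP4K, -0.24 for MAP3K, -0.14 for MAP2K, 0.052 for MAP kinases, 0.15 for Mapkapk genes, -0.21 for MAP kinase phosphatases, 0.35 for the non-kinases, -0.21 for other Dusp genes and -0.036 for all 43. Without acLDL libraries 2 and 3 they were 0.080 for MAP4K, -0.39 for MAP3K, -0.35 for MAP2K, -0.067 for MAP kinases, 0.046 for Mapkapk genes, -0.40 for MAP kinase phosphatases, 0.27 for the non-kinases, -0.16 for other Dusp genes and -0.14 for all 43. With at least 10 in all libraries, 25 of the 43 were left, and their median was -0.12. The MAP2K and MAP kinase medians were then both 0.13, over those genes of each tier that were left. Without 1 library the MAP3K median ran from -0.97 to -0.48. Signs turned with the index for Dusp23 (-0.35), Map2k2 (-0.081), Map4k1 (0.54), Mapk1ip1l (0.35), Mapk3 (0.052), Mapk8 (-0.025), Mapkapk2 (0.087), Mapkapk3 (0.15), Mapkapk5 (0.87), the ratio of Map2k1 to Map2k2 (0.14), and also Map2k1 (0.057), Map3k5 (-0.12), Map3k12 (0.013), Mapk6 (0.18), Dusp7 (0.045) and Dusp11 (-0.026). They turned without acLDL libraries 2 and 3 for Dusp23 (-0.10), Map4k1 (0.42), Mapk1ip1l (0.27), Mapk8 (-0.067), Mapkapk2 (0.046), Mapkapk5 (0.13), Map3k5 (-0.14), Mapk6 (0.50) and Dusp11 (-0.050), and after quantile normalization for Mapkapk2 (0.12), Mapk6 (0.44), Dusp7 (0.57) and Dusp19 (0.053). Without 1 library, Mapk1ip1l ran from -0.27 to 0.13, Mapk8 from -0.043 to 0.26 and Mapkapk2 from -0.30 to 0.036. Several signs that turned with the index rest on values smaller than their SE, such as Mapk3 at 0.052 (SE 0.45) and Map3k12 at 0.013 (SE 0.48). Quantile normalization moved the median of all genes from -0.13 to 0.15. Over the 6348 genes with at least 10 in all libraries the median was 0.066. The causes were not tested. Median-of-ratios scaling, pseudocounts of 1 and 20 and dropping the filter turned no sign among the tier medians, the genes named by the rule and the kinase pairs.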
